A study of Mus musculus with 8 samples.

Results

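Hyaluronan is a long, unbranched sugar polymer of the extracellular matrix, and 8 mouse genes that make, bind or degrade it were followed here: Has1, Has2, Has3, Ugdh, Cd44, Tnfaip6, Hyal1 and Hyal2. Probes were taken by gene name from a table of 25697 probes and 17872 gene names, with every probe and array kept in view. Of the 8 genes, 6 had a probe, 11 probes in all, and Has3 and Tnfaip6 were not analysed here. After the filter on dim probes 5 genes were tested: Has1, Has2, Cd44, Hyal1 and Hyal2. The set was chosen because Has2 was high in wild-type cells given c-di-GMP, so every value of Has2 that involves that group is a description and carries no test. The question was whether other genes of hyaluronan metabolism rose beside it.

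Hyaluronan synthases sit in the plasma membrane and extend the polymer directly into the extracellular space from UDP-glucuronate and UDP-N-acetylglucosamine. The chain is held at the cell surface by receptors such as CD44 and is cross-linked by secreted binding proteins called hyaladherins. Hyaluronidases cut it into fragments, and fibroblasts are among the main producers of the polymer in connective tissue.

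The cells were mouse embryonic fibroblasts (MEFs), cultured in medium with 10% serum, and their total RNA was read on 8 Illumina bead arrays of 1 colour. Wild-type cells and cells knocked out for Ticam1, which encodes the Toll-like receptor adaptor TRIF, each received either c-di-GMP or DMSO, with 2 arrays per group. Cells given c-di-GMP are called treated below and those given DMSO are called controls. The bacterial dinucleotide c-di-GMP, which mammalian cells detect through STING, was transfected at 8 µg/ml over 30 min, DMSO was matched in amount, and cells were lysed for RNA 4 h later. Whether DMSO cells also received the transfection reagent, how the knockout was made, and whether replicates were separate cultures are not given in the sources used here, so p-values reflect array-to-array spread that may be purely technical.

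Mean signal per array ranged from 252.6 to 648.9 on 7 arrays, with 11254 to 11657 probes detected (detection p under 0.05). The second knockout DMSO array stood apart, with a mean signal of 225.9 and 6468 detected probes, and it correlated with its replicate at r = 0.833 over all probes, against 0.984 to 0.993 in the other groups. Where leaving it out changes a call or a direction, or moves a called value or a bound by over 1.5 times, both values are given. Ticam1 itself read near background everywhere: 1 of its probes was detected on 3 of 8 arrays, from both genotypes, and the other on 0, so it does not check the genotype labels. Of the fibroblast markers, 9 of 9 on the array were detected on at least 7 arrays. Leukocyte markers differed between the genotypes and are given with the genotype comparison.

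Values below are signals normalized with neqc of limma and given on the log2 scale. Differences carry the standard error (SE) of a limma fit, and an adjusted p is limma's, with Benjamini-Hochberg adjustment over the 9543 genes tested and a threshold of 0.05. Values of different probes are not compared with each other.

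The start regions of 3 genes are printed here: Has1, the other synthase measured, Hyal2, which had the lowest wild-type response of the 5 tested genes, and Ptx3, a hyaluronan cross-linker whose wild-type response was positive like that of Has2. Each window runs 5′ to 3′ from 250 bases before to 50 after the gene's start in the RefSeq annotation of GRCm38.p6. They lie at chr17:17855139-17855438 on the minus strand (Has1), chr9:107568913-107569212 on the plus strand (Hyal2) and chr3:66219637-66219936 on the plus strand (Ptx3). Windows were found for 6 of the 8 genes, and capitals mark motif matches on either strand.
Has1: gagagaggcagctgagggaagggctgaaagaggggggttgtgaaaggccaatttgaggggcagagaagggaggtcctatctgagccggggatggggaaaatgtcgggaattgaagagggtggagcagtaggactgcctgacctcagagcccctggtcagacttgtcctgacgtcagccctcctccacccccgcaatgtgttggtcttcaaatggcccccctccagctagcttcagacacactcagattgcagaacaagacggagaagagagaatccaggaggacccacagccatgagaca
Hyal2: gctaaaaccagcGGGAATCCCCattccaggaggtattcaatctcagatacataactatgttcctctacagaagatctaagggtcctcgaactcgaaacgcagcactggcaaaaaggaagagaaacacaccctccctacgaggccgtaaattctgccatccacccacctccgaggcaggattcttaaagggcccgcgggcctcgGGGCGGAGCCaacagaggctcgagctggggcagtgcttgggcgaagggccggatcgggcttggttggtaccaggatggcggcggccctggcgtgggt
Ptx3: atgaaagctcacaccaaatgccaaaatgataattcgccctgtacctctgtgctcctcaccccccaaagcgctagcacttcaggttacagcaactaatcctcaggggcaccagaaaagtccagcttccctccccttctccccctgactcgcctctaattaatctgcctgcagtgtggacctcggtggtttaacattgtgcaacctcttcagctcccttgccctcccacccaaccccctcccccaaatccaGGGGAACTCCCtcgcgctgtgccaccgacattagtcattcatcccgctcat
The motifs searched were the interferon-stimulated response element (GAAA, any 2 bases, GAAA), the NF-kB site (GGG, any 5 bases, CC), the STAT site (TTCNNNGAA), the AP-1 site (TGANTCA) and the TATA box (TATAAA). The Has1 window held 0 matches. Hyal2 had 2 matches to the NF-kB letters, and in Ptx3 2 overlapping matches to them form a single run at the gene's start. Those letters occur in 50.8% of 32851 windows of the same length, and the other motifs in 3.44%, 8.3%, 7.81% and 13.6%, in the order given. A match describes the letters only.

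Has2, the synthase that makes most hyaluronan in embryonic mesenchyme, read higher in treated wild-type cells than in the other 3 groups. Its single probe (ILMN_1254975) read 10.93 and 11.24 on the treated wild-type arrays and 7.24 and 7.65 on the wild-type control arrays. Treated knockout arrays read 8.74 and 8.53, and knockout control arrays 8.82 and 7.20. The treated wild-type arrays lie above all 6 others, with no overlap. Deposited signals were 822.2 and 3441.8 in treated wild-type cells, 298.6 and 251.3 in their controls, 611.7 and 608.7 in treated knockout cells, and 723.1 and 213.5 in knockout controls. The last of these, on the weak array, did not reach detection. On its own array Has2 ranked at percentile 95.4 and 96.4 in treated wild-type cells and between 72.5 and 84.2 on the other arrays.

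Group means for Has2 were 11.08 ± 0.23 (treated) and 7.44 ± 0.29 (control) in wild type, and 8.63 ± 0.15 and 8.01 ± 1.15 in the knockout (SD, n = 2). The wild-type difference was 3.64 ± 0.52 (SE), or 12.5-fold, the fifth highest of 9543 genes. The authors' normalized table gave the same picture, with 2049.7 and 2529.8 in treated wild-type cells and 248.8 to 558.5 on the other 6 arrays. In bulk RNA, fewer cells with a transcript and less of it per cell cannot be told apart.

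**Figure D1:**
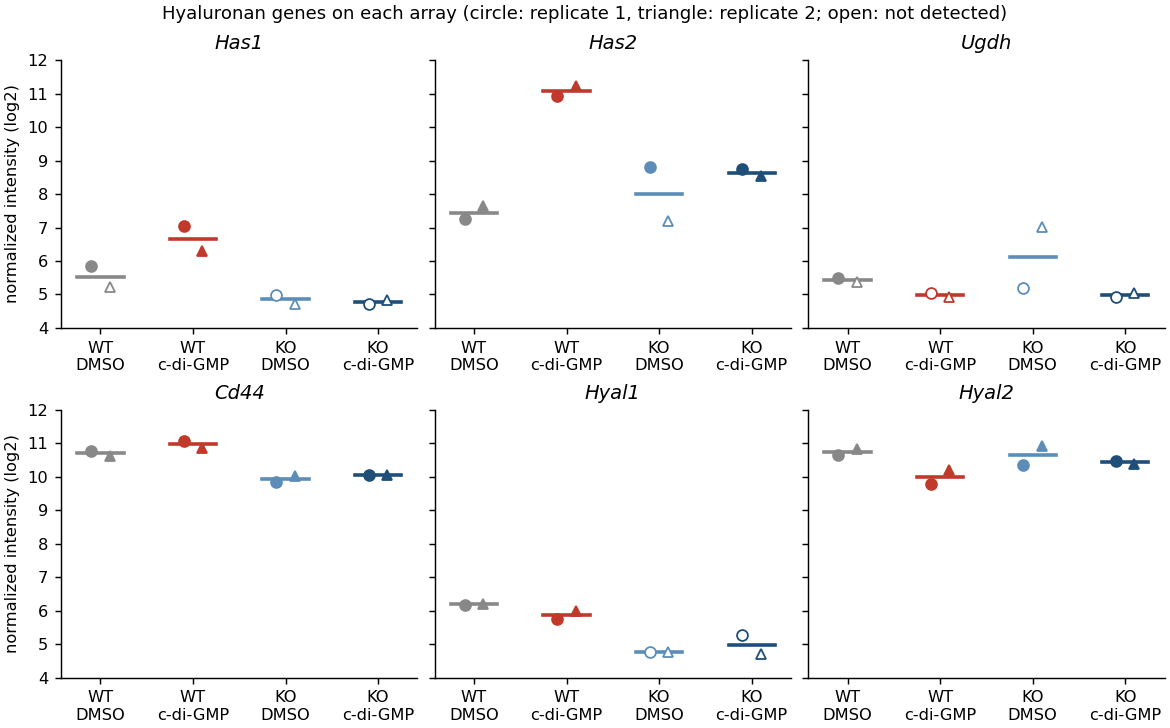
Normalized log2 intensity of the 6 genes with a probe on each of the 8 arrays, by group (circles are replicate 1, triangles replicate 2, open symbols not detected, lines group means; Cd44 by its brightest probe). Has2 reads 10.93 and 11.24 in treated wild-type cells, above its other 6 arrays, and the Has1 and Hyal1 probes were not detected on any knockout array.

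In knockout cells the Has2 response was 0.62 ± 0.52, with a 95% interval of -0.62 to 1.85 and an adjusted p = 0.549. This value depends on the DMSO group, whose arrays read 8.82 and 7.20. Without the weak second DMSO array it was -0.19 ± 0.26 (adjusted p = 1), and without the first it was 1.43 ± 0.26 (adjusted p = 0.00288). The difference between the responses, knockout minus wild type, was -3.02 ± 0.73 with all arrays and -3.83 ± 0.34 without the weak array. Under DMSO, knockout minus wild type was 0.57 ± 0.52 (adjusted p = 0.475), 1.38 ± 0.26 without the weak array (adjusted p = 0.00783), and -0.24 ± 0.26 without the first knockout DMSO array (adjusted p = 0.442). Under c-di-GMP the knockout read 2.45 lower on the log2 scale (difference -2.45 ± 0.52).

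Has1, the other synthase with a probe, was detected in wild-type cells only. Its probe (ILMN_2997282) gave 7.05 and 6.29 in treated wild-type cells and 5.84 and 5.21 in wild-type controls. Treated knockout cells gave 4.73 and 4.84, and knockout controls 4.97 and 4.73. It was detected on 3 wild-type arrays and on 0 of 4 knockout arrays. Both treated wild-type arrays lie above both of their controls, by 1.14 ± 0.36, with an unadjusted p = 0.016 and an adjusted p = 0.445 (0.0813 without the weak array), so the difference did not pass the test. Neither knockout group was detected, so no knockout response is given.

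Ugdh, the enzyme that oxidises UDP-glucose to UDP-glucuronate, was not tested. Its probe was detected on 1 of 8 arrays, the first wild-type DMSO array, at a signal of 162.7. Log2 values on the 7 strong arrays were 4.91 to 5.49, near the lowest detected level of those arrays (5.36 to 5.45), and the weak array read 7.03 without being detected. The 6 other tested precursor enzymes of a longer hyaluronan list had wild-type differences of -0.54 to -0.03, and none of the 6 passed the test in that response. None passed in the knockout response, but some, Gfpt2 included, were detected in neither knockout group and could not show a response there.

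Cd44, the main cell-surface receptor for hyaluronan, had 6 probes, of which 2 passed the filter. The brightest (ILMN_3114585) read 11.06 and 10.87 in treated wild-type cells, 10.77 and 10.62 in wild-type controls, 10.04 and 10.04 in treated knockout cells, and 9.85 and 10.01 in knockout controls. Treated arrays lie just above their controls within each genotype. Those differences were 0.27 ± 0.24 in wild type (adjusted p = 1) and 0.11 ± 0.24 in the knockout (adjusted p = 0.804), and neither passed the test. The second kept probe, detected on 3 arrays, gave 0.06 ± 0.39 and 0.82 ± 0.39 for the same comparisons.

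Hyal2, a hyaluronidase anchored at the cell surface, read lower in treated wild-type cells without passing the test. Its probe (ILMN_1230039) read 9.79 and 10.19 in treated cells and 10.65 and 10.84 in controls. Treated arrays lie below control arrays, at -0.76 ± 0.3, with an unadjusted p = 0.0411 and an adjusted p = 0.682 (0.0732 without the weak array). The treated knockout arrays read 10.48 and 10.37 and the knockout controls 10.36 and 10.92, and the groups overlap (-0.21 ± 0.3, adjusted p = 0.694, and 0.06 ± 0.24, adjusted p = 1, without the weak array). Hyal1, the lysosomal hyaluronidase, differed by -0.32 ± 0.28 in wild type (adjusted p = 1) and was detected in neither knockout group.

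Counted over the 5 tested genes, 1 was called higher in the wild-type response, Has2, which was chosen on this contrast, against 0.587% of all genes called higher. Nothing is read from that count. In the knockout response limma called 0 of the 5, with 0 at an unadjusted p under 0.05, against 0% of all genes called and 2.66% at the unadjusted level. Has1 and Hyal1 were detected in neither knockout group, so their part in this count and the next says nothing about a knockout response. For the difference between responses limma called 0 of 5 and 0.0419% of all genes, and 0 of the 4 genes other than Has2 had an unadjusted p under 0.05, beside 5.31% of all genes. Has1 lay at the edge of that cut (-1.21 ± 0.51, limma's unadjusted p = 0.0502). Without the weak array its difference was -1.32 ± 0.48, and that of Hyal2 moved from 0.54 ± 0.42 to 0.82 ± 0.31. These counts therefore depend on that array.

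**Figure D2:**
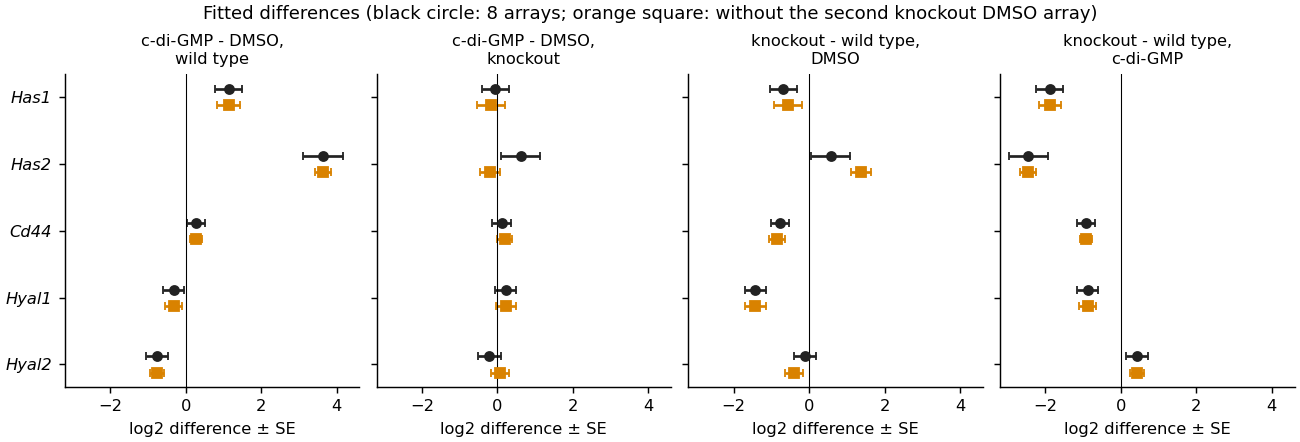
Fitted log2 differences ± SE of the 5 tested genes in 4 comparisons, with all 8 arrays (black circles) and without the second knockout DMSO array (orange squares). Has2 stands at 3.64 in the wild-type response, and in the knockout response its value moves from 0.62 to -0.19 when the weak array is left out. The knockout groups of Has1 and Hyal1 were not detected, so their fitted values there are not measured differences.

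The longer hyaluronan list named 48 genes, 44 had a probe and 21 were tested. In the wild-type response the median difference of the 21 was -0.03, beside -0.06 over all genes, and 10 of 21 were above 0, beside 43.1% of all genes. Has2 was the 1 gene called. Its call was lost with median scaling, with no detection filter and with the replicate number as a block. The call was also lost without any 1 array outside the knockout DMSO group. Its difference stayed at 3.43 to 3.85 with 1 array left out. Of the 20 genes other than Has2, limma called 0, and at an unadjusted p under 0.05 4 were higher (Ptx3, Cemip2, Has1 and Vcan) and 1 was lower (Hyal2), beside 4.03% and 2.68% of all genes. Whether Ptx3, Cemip2 and Vcan were called changed with the array left out. With 1 array left out their differences stayed at 1.96 to 2.18, 0.87 to 1.36 and 0.83 to 1.02.

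Ptx3 encodes pentraxin 3, a secreted protein that helps cross-link hyaluronan through the heavy chains of inter-alpha-inhibitor. It read 9.73 and 9.66 in treated wild-type cells, 7.52 and 7.74 in wild-type controls, 7.93 and 8.55 in treated knockout cells, and 8.53 and 8.95 in knockout controls. The treated wild-type arrays lie above all others. The wild-type difference was 2.07 ± 0.31, just outside the threshold with all arrays (adjusted p = 0.0528) and inside it without the weak array (adjusted p = 0.00382). Without any 1 array outside the knockout DMSO group the adjusted p was 0.168 to 0.569, and with median scaling it was 1. Its second probe gave 2.05 ± 0.3. In the knockout the response was -0.5 ± 0.31 (adjusted p = 0.529), and the difference between responses was -2.58 ± 0.44 (adjusted p = 0.219, and 0.0424 without the weak array).

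Cemip2, a cell-surface hyaluronidase, read 10.05 and 10.54 in treated wild-type cells and 9.19 and 9.16 in their controls. Neither pair overlaps the other. The difference was 1.12 ± 0.32 (adjusted p = 0.364, and 0.0301 without the weak array), and the other kept probes gave 1.51 and 1.15. In knockout cells the difference was 0.16 ± 0.32 (adjusted p = 0.792). There the other kept probes gave 1.4 ± 0.57 and 0.44 ± 0.3, in the same order, and both were undetected on the weak array. Vcan, the hyaluronan-binding proteoglycan versican, differed by 0.92 ± 0.38 in wild type (adjusted p = 0.728, and 0.0252 without the weak array). Its knockout difference was 0.83 ± 0.38 with all arrays (adjusted p = 0.529) and 0.29 ± 0.21 without the weak array (adjusted p = 1).

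**Figure D3:**
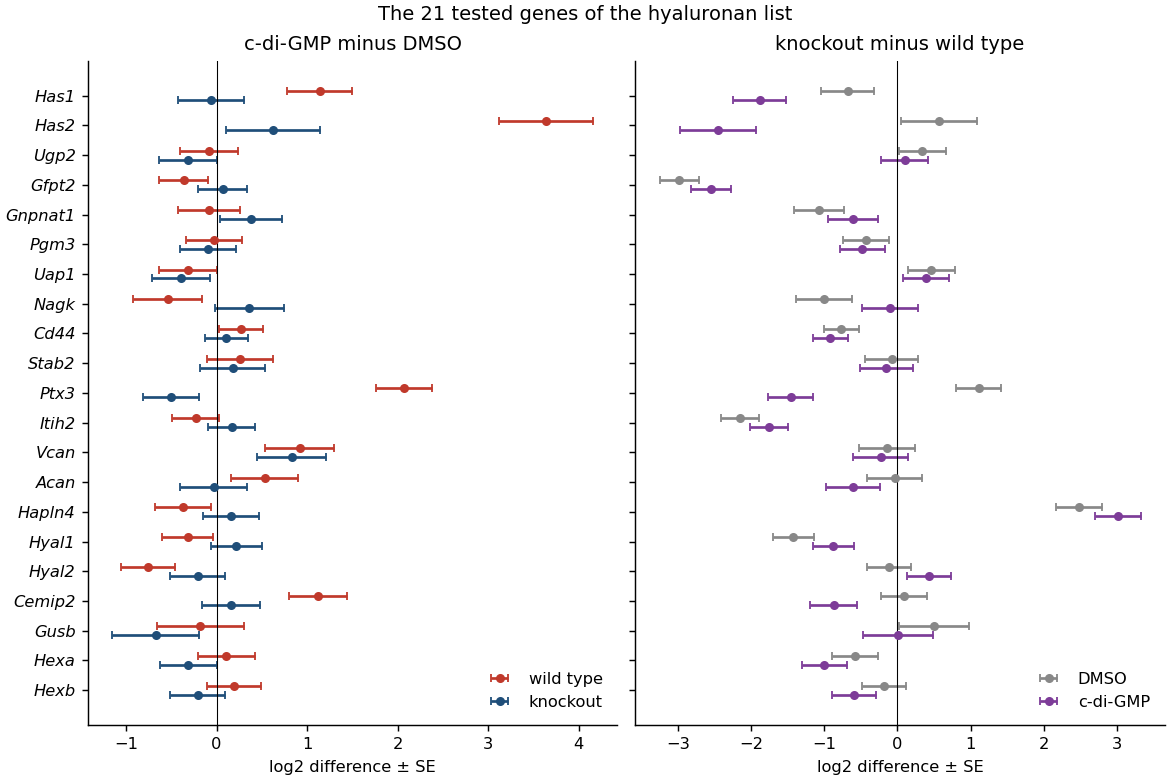
Fitted log2 differences ± SE of the 21 tested genes of the hyaluronan list, for c-di-GMP minus DMSO (left) and knockout minus wild type (right), all 8 arrays. On the left Has2 at 3.64 and Ptx3 at 2.07 are the highest wild-type values, and on the right Gfpt2, Itih2 and Hapln4 differ between genotypes under both treatments. Gfpt2 and Itih2 were not detected in the knockout, nor Hapln4 in treated wild-type cells, so those fitted values are against undetected groups. The knockout responses of Has1, Gfpt2, Gnpnat1, Pgm3, Itih2, Acan and Hyal1 lie between undetected groups and are not measured differences.

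More genes were called between genotypes than between treatments. Under DMSO 12.7% of all genes were called and under c-di-GMP 14%. Of the 5 tested genes, 1 was called lower in the knockout under DMSO (Hyal1), beside 7.48% of all genes called lower. Under c-di-GMP 3 of 5 were called lower (Has1, Has2 and Cd44), beside 8.14%, and Has2 among them was chosen on a value of that contrast. Of the 21 list genes, 1 was called higher and 3 lower under DMSO, beside 5.24% of all genes higher. Under c-di-GMP 1 of 21 was called higher and 6 lower, beside 5.85% of all genes higher. The filter bears on these counts: 7 of the 21 genes, among them Has1, Hyal1, Gfpt2 and Itih2, were detected on wild-type arrays alone and passed only through them, so the counts are given as a description and support nothing. The adjusted p-values of these 7 genes in the genotype comparisons are likewise a description.

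Hyal1 (ILMN_2644375) read 6.17 and 6.20 in wild-type controls and 4.76 and 4.77 in knockout controls. Among treated cells it read 5.76 and 5.98 in wild type and 5.27 and 4.70 in the knockout. It was detected on all 4 wild-type arrays and on 0 of 4 knockout arrays, and the genotypes do not overlap. The fitted difference, against a group with no detected array, was -1.42 ± 0.28 under DMSO (adjusted p = 0.0228), and leaving out any 1 of the 6 arrays outside the knockout control group gave an adjusted p of 0.0523 to 0.174. Under c-di-GMP it was -0.88 ± 0.28 (adjusted p = 0.0947, and 0.0159 without the weak array). Since the knockout groups are not detected, the ratio is a bound: at least 1.38-fold lower under c-di-GMP, and at least 1.77-fold lower under DMSO without the weak array.

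Has1, which passed the filter through wild-type arrays alone, was also lower in the knockout under c-di-GMP. It was at least 2.41-fold lower (fitted difference -1.88 ± 0.36, adjusted p = 0.0166, a description). That call was lost when the first treated wild-type array or either treated knockout array was left out (adjusted p of 0.115 to 0.137). Under DMSO the fitted difference was -0.68 ± 0.36 (adjusted p = 0.248). Cd44 by its brightest probe was lower in the knockout under c-di-GMP (difference -0.92 ± 0.24, adjusted p = 0.0497), and under DMSO the difference was -0.77 ± 0.24 (adjusted p = 0.0861, and -0.85 ± 0.2 with adjusted p = 0.0192 without the weak array). Its second probe went the other way under c-di-GMP, at 0.58 ± 0.39 (adjusted p = 0.417), and the Cd44 call was lost without any 1 array outside the knockout DMSO group (adjusted p of 0.127 to 0.296). Hyal2 did not pass the test between genotypes, at -0.11 ± 0.3 under DMSO (adjusted p = 0.823) and 0.43 ± 0.3 under c-di-GMP (adjusted p = 0.424).

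Among the other list genes, Gfpt2, which makes the precursor of UDP-N-acetylglucosamine, was detected on 4 wild-type arrays at 7.49 to 8.06 and on 0 of 4 knockout arrays. Like Itih2, it passed the filter only through wild-type arrays, so the adjusted p-values of both are a description. It was at least 2.65-fold lower in the knockout under DMSO (adjusted p = 0.00107), or at least 5.61-fold without the weak array, and at least 4.27-fold lower under c-di-GMP (adjusted p = 0.00155). Itih2, a heavy chain that is transferred onto hyaluronan, showed the same detection pattern, at least 1.35-fold lower under DMSO (adjusted p = 0.00336), or at least 2.86-fold without the weak array, and at least 2.39-fold lower under c-di-GMP (adjusted p = 0.00635). Hapln4, a link protein, ran the opposite way, at 7.78 to 8.02 on 4 knockout arrays and detected on 1 of 4 wild-type arrays. Its difference was 2.48 ± 0.31 under DMSO (adjusted p = 0.00403), and it was at least 5.72-fold higher under c-di-GMP (adjusted p = 0.00148). Hapln4 passed the filter only through the knockout arrays, so these adjusted p-values are a description. Ptx3 was lower in the knockout under c-di-GMP (difference -1.46 ± 0.31, adjusted p = 0.025), and under DMSO it read 1.11 ± 0.31 higher without passing the test (adjusted p = 0.0654). The Itih2 call was lost without the first wild-type DMSO array under DMSO (adjusted p = 0.0539) and without the second treated wild-type array or either treated knockout array under c-di-GMP (0.0536 to 0.0819). The Ptx3 call was lost without any 1 array outside the knockout DMSO group (0.0691 to 0.214). With median scaling of all 8 arrays each of these genotype calls was lost, the lowest adjusted p being 0.0697 (Gfpt2 under DMSO).

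Some markers of other cell types differed between genotypes beside these genes. The summed log2 level of 8 leukocyte markers was 55.54 to 58.48 on wild-type arrays and 40.39 to 43.88 on knockout arrays, with Lyz2 at 10.8 and 11.15 in treated and control wild-type cells against 4.92 and 4.82 in the knockout. Cd14 did not share this direction, at 6.69 and 7.19 in wild type and 7.91 and 7.21 in the knockout. Of these 8 markers 6 were detected on at least 2 arrays, and Ptprc and Itgam on 0. Mesothelial markers (3 genes) summed to 13.97 to 14.5 on wild-type arrays and 17.68 to 20.28 on knockout arrays. Most of that gap lay in Msln, at 4.72 and 4.58 in treated and control wild-type cells against 8.05 and 8.37 in the knockout. Upk3b, detected on 1 array, read 4.85 and 5.15 against 5.32 and 4.99, and Lrrn4 was detected on 0 arrays. Cartilage markers (4 genes) summed to 19.95 to 20.88 on wild-type arrays and 21.98 to 22.74 on knockout arrays. Sox9 carried that gap, at 5.28 and 5.16 in treated and control wild-type cells against 7.82 and 7.58 in the knockout. Acan (5.57 and 5.04 against 4.97 and 5) and Col2a1 (5.03 and 5.15 against 4.94 and 5.01) did not rise. Matn1 was detected on 0 arrays. Endothelial and epithelial sums overlapped between the genotypes. So did the fibroblast sums, but single fibroblast markers differed in opposite directions: Col1a1 read 13.2 and 12.72 in treated and control wild-type cells against 11.06 and 10.61 in the knockout, and Pdgfra 7.31 and 8.00 against 10.34 and 11.06. The part of these markers in the genotype differences was not tested. Between treatments within wild-type cells the leukocyte sums were 55.54 to 57.84 with c-di-GMP and 57.22 to 58.48 with DMSO.

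The genes nearest to Has2 in pattern were found by the mean absolute difference of log2 values, each gene centred on its own mean over the 8 arrays, which is a description of these arrays. They were Atf3 (0.489), Gdnf (0.5), Il15 (0.512), Btc (0.53) and Arl4a (0.543). Their wild-type differences were 2.61, 1.98, 2.8, 2.3 and 2.74, beside knockout differences of 0.32, 0.77, 0.55, 0.37 and -0.08. Outside treated wild type Arl4a read 4.95 to 5.26 and Btc 4.7 to 5.26, below the lowest detected level of each array. Atf3 did so in wild-type controls (4.8 and 4.91). The wild-type differences of Atf3, Btc and Arl4a are thus against undetected groups. The knockout differences of Btc and Arl4a lie between undetected groups and are not measured responses. Over the 7 arrays without the weak one the nearest were Rgcc (0.397), Arl4a (0.439), Btc (0.468), Cenpj (0.476) and Atf3 (0.48), so Arl4a, Btc and Atf3 stand in both sets.

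**Figure D4:**
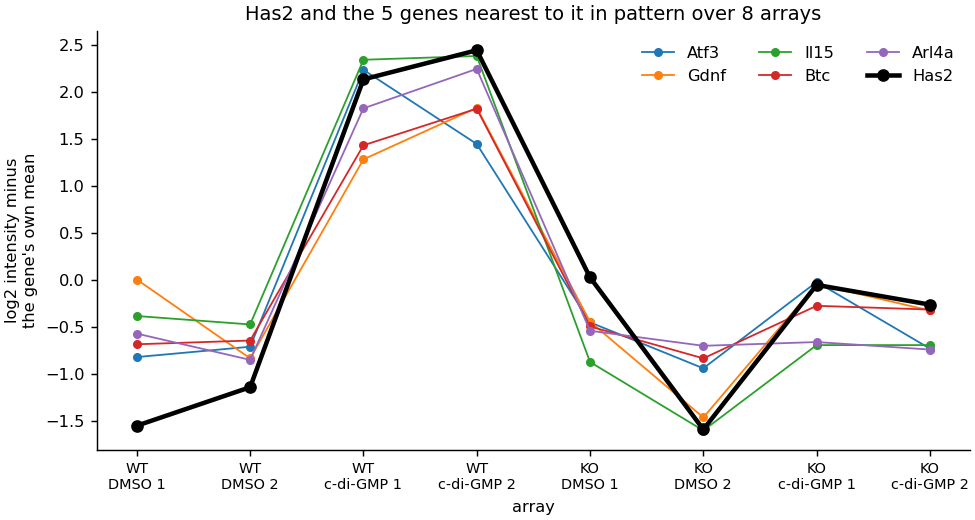
Log2 intensity minus each gene's own mean for Has2 (thick black line) and the 5 genes nearest to it in pattern, over the 8 arrays. All 6 are highest on the wild-type c-di-GMP arrays, and Has2 differs between the knockout DMSO arrays (8.82 and 7.20 before centring).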

How the data were processed

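Per the file headers, the authors deposited non-normalized intensity and a detection p-value for each probe and array, and in a second table normalized intensity. GenomeStudio 2010.2 is named in the submitters' processing notes. Neither the background handling before export nor the normalization method of the second table was given in the sources used here.

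Signals were background corrected through the detection p-values and quantile normalized (limma 3.58.1 under R 4.3.3, function neqc, offset 16). The filter kept the 13026 probes detected (p under 0.05) on 2 or more of the 8 arrays, and each gene was read by its brightest probe on average. The model had 1 mean per group (4 residual degrees of freedom, 2.77 prior). All tests were two-sided, and the code was tested on simulated data. Where a probe was undetected on every array of a group, the ratio is a bound against the lowest detected signal.

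Gene names were updated through the RefSeq gene table of GRCm38.p6: an exact match named 20736 probes, a gene number 122 and a synonym 3841, while 967 kept the file's name and 31 that held a date stayed unnamed. The genes, the lists and the naming rule were chosen with earlier results of these data known. Named were all 8 genes, the list genes called in any comparison or at an unadjusted p under 0.05 in a response, and the 5 genes nearest to Has2 in pattern. Alternatives covered normalization, background, filter, probes, array weights, the replicate number as a block and leaving out each array. Array number limits the precision. Replicate numbers did not pair the arrays: deviations of same-numbered arrays correlated at -0.026 to 0.065. Marker sums leave out Epcam, Fn1 and Wt1, which were not analysed here, and a further marker that is not reported here.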

Additional observations from a re-analysis of the deposited data

How the results depend on the processing

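The direction of the Has2 wild-type difference was kept in all 19 alternatives, at 3.03 with the authors' normalized table, 2.96 without background correction, and 3.43 to 3.85 when 1 array was left out. So was that between genotypes under c-di-GMP. The Has2 difference between responses was -1.99 with median scaling and -3.83 to -2.21 with 1 array left out. Its knockout response ran from -0.19 to 1.43 and its genotype difference under DMSO from -0.24 to 1.38 with 1 array left out.

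After seeing the data, 2 alternatives were added, in which 7 arrays were normalized again without the weak array. With quantile normalization the Has2 difference between responses was -3.87, its knockout response -0.19 and its genotype difference under DMSO 1.4. With median scaling of those 7 arrays they were -3.7, -0.25 and 1.73. Median scaling of all 8 arrays moved the median of all genes from 0.1 to 0.93 in the knockout response and from -0.06 to -0.24 in the wild-type response.

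Counts of called list genes changed as follows. In the wild-type response, 1 in the report, the count was 0 under median scaling, with no detection filter and with the replicate block, 2 with the authors' table, no background correction, a detection p under 0.01, every probe, the mean of probes and the 7 arrays with median scaling, 4 with array weights and with the 7 arrays (5.78% of all genes), and 0 to 4 with 1 array left out. In the knockout response, 0 in the report, it was 0 to 7 with 1 array left out (7 without the first knockout DMSO array, with 57.4% of all genes). For the difference between responses, 0 in the report, it was 1 in both fits of 7 arrays and 0 to 6 with 1 array left out. Between genotypes under c-di-GMP, 7 in the report, it was 0 under median scaling, 11 with array weights, 11 with the 7 arrays, where 44.3% of all genes were called, and 2 to 11 with 1 array left out. Under DMSO, 4 in the report, it was 0 under median scaling, 1 with array weights, 7 with the 7 arrays (27.9% of all genes), and 2 to 13 with 1 array left out, the highest without the first knockout DMSO array, where 64.1% of all genes were called. In the replicate block the other counts were 0, 0, 4 and 6 (knockout response, difference, DMSO, c-di-GMP), and the array numbers share only a number.

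Some differences that did not pass the test changed sign. The Cd44 difference between responses was 1.38 under median scaling, 0.3 with the mean of probes and 0.1 in the 7 arrays with median scaling. The Hyal2 knockout response was 1.21 under median scaling, 0.06 without the weak array, 0.06 in the 7 arrays and 0.01 in those with median scaling, and without the first knockout DMSO array it was -0.49. Its DMSO genotype difference was -0.39 to 0.17 with 1 array left out, 0.17 without that array. With 1 array left out the Has1 knockout response was -0.18 to 0.05 and that of Hyal1 -0.06 to 0.51, both between undetected groups. The cause of these changes was not tested.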
